A study of Homo sapiens with 6 samples.

Results

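Aldehyde dehydrogenase (ALDH) genes were described in the human breast carcinoma cell line CAL-51. High ALDH activity is used to mark stem-like cells of breast tissue and breast tumours. The 10 members were taken by symbol: ALDH1A3, ALDH1B1, ALDH2, ALDH3A2, ALDH4A1, ALDH6A1, ALDH7A1, ALDH9A1, ALDH16A1 and ALDH18A1, out of 22794 genes in the deposited tables. Cells of both groups came from a transfection with a p27-mVenus reporter plasmid and were sorted on p27, the product of CDKN1B that inhibits cyclin-dependent kinases, into p27-positive and p27-negative cells, with 3 libraries of poly(A) RNA in each group. The labels give neither an interval between transfection and sorting nor separate cultures for the replicates, so p-values describe the scatter of these 6 libraries, part of which may be technical. Untransfected or mock-transfected cells are not analysed here, and an effect of taking up the plasmid cannot be told apart from the p27 state.

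Most enzymes of this superfamily oxidise aldehydes, typically to acids, with NAD or NADP as the acceptor of electrons. ALDH18A1 and ALDH16A1, described below, are exceptions. Members differ in their substrate and their place in the cell: some clear acetaldehyde and lipid aldehydes, some carry single steps of amino acid breakdown in mitochondria, and some make retinoic acid from retinal. The fluorescent assay that sorts ALDH-positive breast cells reads the summed activity of several of these enzymes, with ALDH1A1 and ALDH1A3 the isoforms most often named, and RNA levels do not measure that activity.

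The libraries held 22216934 to 28609257 reads assigned to genes. The chi-square over genes divided by its degrees of freedom was 5.11 to 6.16 for libraries of the same group, above the counting noise, and 72.7 to 91.4 for libraries of different groups. The second principal component (14.4% of the variance) set p27-negative replicate 3 apart, at -53.9 against -1.38 to 28.6 for the other 5 libraries. Among keratin genes of epithelial carcinoma KRT8 was abundant (86970.1 normalized counts on average in p27-positive libraries and 57174 in p27-negative ones). KRT18 (33722 and 28793) and KRT19 (24864 and 7546) were abundant too, while KRT7 was at 105 and 108. CDH1, the E-cadherin gene, was at 4.55 ± 3.95 and at 0 in all 3 p27-negative libraries. Of mesenchymal-like genes, VIM (2167 and 2557) and ZEB1 (857 and 1163) were expressed, while FN1 (43.7 and 28.6) and CDH2 (8.71 and 7.12) were low. Of 5 leukocyte markers 2 were listed, with a summed level of 19.1 to 21.1 against 24.5 to 34.2 normalized counts. Of 4 endothelial markers 3 were listed, with a summed level of 4366 to 4668 against 2753 to 2874 that came from VWF and CDH5, while PECAM1 was at 3.32 and 2.97. Of 4 fibroblast markers 2 were listed, at 102 to 120 (119.8) against 18.7 to 60.5, and the 3 adipocyte markers are not analysed here. The part of these marker differences in the results below was not tested. CDKN1B mRNA was lower in the p27-positive cells (log2 fold change -0.35 ± 0.07), and MKI67, expressed in proliferating cells, was lower too (-1.78 ± 0.03).

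Levels are given as DESeq2-normalized counts, which are reads per gene divided by a size factor for each library, with mean ± SD over the 3 libraries of a group. A gene was called when limma gave a Benjamini-Hochberg adjusted p under 0.05 over 15950 genes, those that averaged 10 or more normalized counts across the libraries. A log2 fold change ± SE stands for p27-positive less p27-negative on log2(normalized count + 1). In bulk RNA, fewer cells that carry a transcript and less of it per cell cannot be told apart.

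Most ALDH genes were expressed and most differed between the sorted groups. ALDH2, ALDH6A1, ALDH4A1, ALDH3A2 and ALDH7A1 rose in p27-positive cells, ALDH1B1, ALDH9A1 and ALDH16A1 fell by small amounts, and ALDH18A1, the most abundant member, was not called. ALDH1A3 was close to unread and did not reach the level for testing. Of the 9 members tested, 5 were higher and 3 lower by limma, against 25.5% and 27.1% of all tested genes (52.6% in either direction). The libraries of the groups did not overlap for any of the 9, against 57.7% of all tested genes, with 6 members higher (28.5%) and 3 lower (29.1%) in p27-positive cells. ALDH2 was the 1 member with a called rise of at least 1 on the log2 scale, which 9.3% of tested genes reached. The 9 members had a median log2 fold change of 0.27, against 0.03 for the whole set of tested genes. With 52.6% of genes called, a call alone does not set a member apart.

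**Figure D1:**
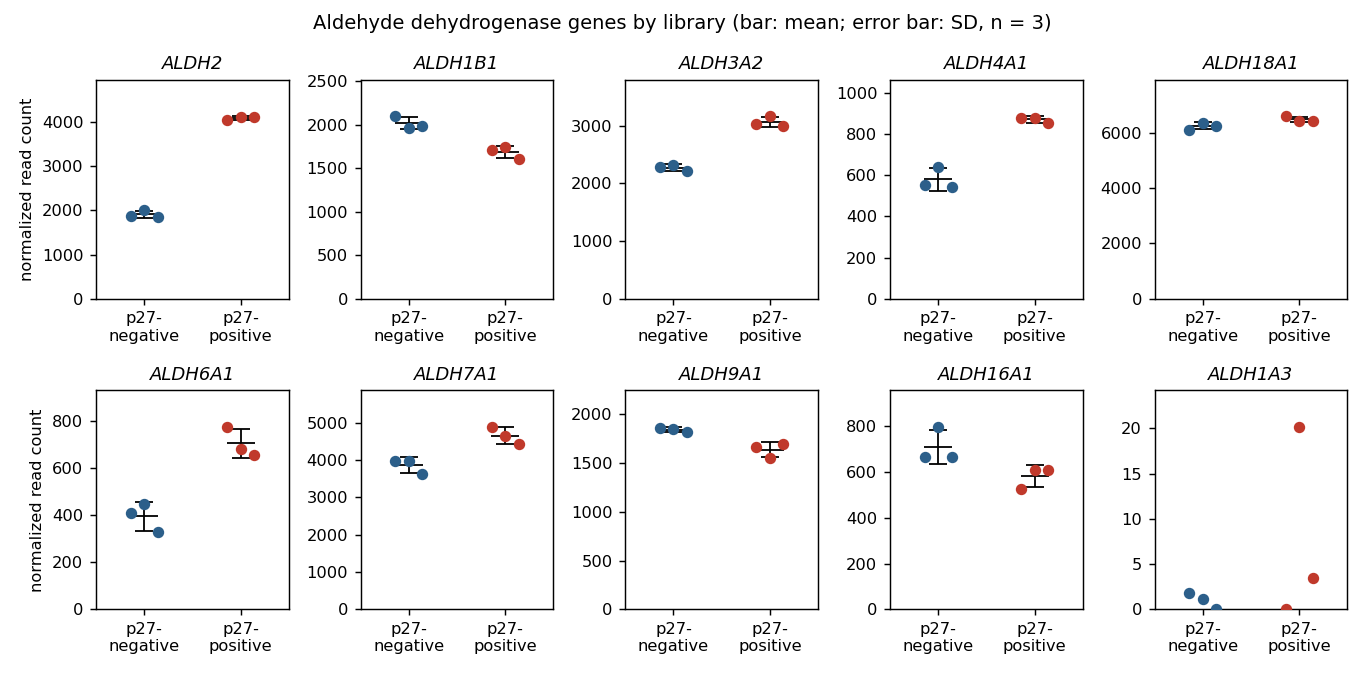
Normalized read counts (y axis, from 0, a scale of its own in each panel) of the 10 ALDH genes in the 3 p27-negative (blue) and 3 p27-positive (red) libraries, with 1 point per library and the mean and SD in black. Means and SD are left out for ALDH1A3, which has no reads in 1 library of each group; in the other 9 panels the points of the groups do not overlap.

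The mitochondrial enzymes of acetaldehyde oxidation went opposite ways. ALDH2, the main enzyme that oxidises acetaldehyde from ethanol and that also clears the lipid peroxidation product 4-hydroxynonenal, lies on chromosome 12 (111766887 to 111817532, plus strand, build hg38). It was read at 4048, 4120 (4120.1) and 4107 normalized counts in p27-positive libraries and at 1879, 2008 and 1855 in p27-negative libraries. All 3 p27-positive libraries lay far above the p27-negative ones, and the libraries of a group lay close together. The rise was 2.14-fold (4092 ± 38.1 against 1914 ± 81.9; 1.10 ± 0.05 on the log2 scale; limma, adjusted p = 8.1e-21). The size of this and the other limma p-values depends on the prior, which pools the scatter of all tested genes. With a constant prior in place of one that follows the mean level, limma gave an adjusted p of 0.00029 for ALDH2.

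ALDH1B1 (chromosome 9, 38392702 to 38398661, plus strand), the close relative of ALDH2 that also acts on acetaldehyde and retinal, had 1713, 1743 and 1607 normalized counts against 2097, 1966 and 1983. Its p27-positive libraries all lay below its p27-negative ones, by a small margin. It fell 1.19-fold (log2 fold change -0.26 ± 0.06; limma, adjusted p = 0.00059), a call lost with scaling to the library total (log2 fold change -0.13; limma, adjusted p = 0.085). The ratio of ALDH2 to ALDH1B1 within a library does not depend on the scaling of the library. In FPKM, the authors' count scaled by gene length and library depth, it was 0.758, 0.758 and 0.819 in the p27-positive group and 0.287, 0.327 and 0.300 in the p27-negative group. The ratio was higher in all 3 p27-positive libraries (exact two-sided permutation test, p = 0.1, the smallest that 3 against 3 libraries allows). ALDH1B1 remained higher than ALDH2 in FPKM in every library of both groups. By mean normalized count, ALDH2 was higher in p27-positive cells (4092 against 1688) and lower in p27-negative cells (1914 against 2015). Which gene is the more abundant therefore depends on the gene lengths behind the FPKM, which were not examined. The same lengths apply to both groups, so the difference in the ratio between groups does not depend on them.

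ALDH3A2 encodes the fatty aldehyde dehydrogenase of the endoplasmic reticulum and peroxisomes, which oxidises long-chain aldehydes, among them the one released from sphingosine 1-phosphate. The gene (chromosome 17, 19648136 to 19685760, plus strand) had 3037, 3168 and 2993 normalized counts in p27-positive libraries and 2292, 2324 and 2215 in p27-negative libraries. The groups were well separated, and the level rose 1.35-fold (0.43 ± 0.05; limma, adjusted p = 7.3e-09). SLC47A2, on the opposite strand over its last 7473 bases, was at 11.8 ± 4.61 and 9.31 ± 7.37, far below ALDH3A2.

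The members include an enzyme of proline breakdown, whose gene rose, and one of proline synthesis, whose gene was not called. ALDH4A1 oxidises pyrroline-5-carboxylate to glutamate in mitochondria, the second step of proline breakdown, and it is a known target of p53. It lies on chromosome 1 (18871430 to 18902724, minus strand) and was read at 881, 881 and 853 normalized counts in p27-positive libraries, against 555, 642 and 542 in p27-negative ones. The 3 p27-positive values were nearly equal and stood clear of the highest p27-negative one. The rise was 1.50-fold (0.59 ± 0.09; limma, adjusted p = 1.2e-06). ALDH18A1 encodes pyrroline-5-carboxylate synthase, which runs in the other direction and turns glutamate into the precursor of proline and ornithine.

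ALDH18A1 (chromosome 10, 95605941 to 95656711, minus strand) had 6589, 6421 and 6427 normalized counts against 6105, 6357 and 6248. The p27-positive values were all higher, but by only 1.04-fold (0.05 ± 0.04; limma, adjusted p = 0.25). With scaling to the library total it was called higher, at 0.19 ± 0.04 (limma, adjusted p = 7.8e-05). The FPKM ratio of ALDH4A1 to ALDH18A1 was 0.138, 0.142 and 0.137 in p27-positive libraries, against 0.0941, 0.105 and 0.0898 in p27-negative ones. That ratio was higher in all 3 p27-positive libraries (exact two-sided permutation test, p = 0.1, the smallest possible).

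Both members that act in the breakdown of other amino acids rose. ALDH6A1 encodes methylmalonate semialdehyde dehydrogenase, which acts late in valine and thymine breakdown in mitochondria. Its gene (chromosome 14, 74056847 to 74084492, minus strand) was read at 776, 683 and 659 normalized counts in p27-positive libraries, against 411, 447 and 329 in p27-negative ones. The lowest p27-positive library lay well above the highest p27-negative one. It rose 1.78-fold (706 ± 62.1 against 396 ± 60.8; 0.84 ± 0.12; limma, adjusted p = 6.3e-08), and by 0.71 without p27-negative replicate 3. BBOF1, whose gene covers most of ALDH6A1 on the opposite strand, was at 40.7 ± 18.0 and 22.1 ± 0.743.

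ALDH7A1, or antiquitin, oxidises aminoadipate semialdehyde in lysine breakdown and has a role in the protection of cells from osmotic stress. It lies on chromosome 5 (126531200 to 126595362, minus strand). Its levels were 4889, 4649.7 and 4433 normalized counts in p27-positive libraries, against 3979, 3984 and 3616 in p27-negative ones. The groups were close but did not overlap, and the rise was 1.21-fold (0.27 ± 0.05; limma, adjusted p = 8.7e-06). Its processed pseudogene ALDH7A1P1, which can take reads from it, was at 56.0 ± 16.3 and 29.9 ± 10.01 normalized counts, far below ALDH7A1.

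ALDH9A1 oxidises trimethylaminobutyraldehyde on the path to carnitine, and aminobutyraldehyde from polyamines. The gene (chromosome 1, 165662216 to 165698562, minus strand) had 1665, 1544 and 1689.6 normalized counts in p27-positive libraries, against 1859, 1849 and 1809 in p27-negative ones. The p27-positive libraries were all lower, by 1.13-fold on average (-0.17 ± 0.06; limma, adjusted p = 0.021). The call was lost without p27-positive replicate 2 (-0.13; limma, adjusted p = 0.12), without p27-negative replicate 1 (adjusted p = 0.056) and with each other scaling, where the log2 fold change ran from -0.06 to -0.04. A constant prior in limma lost the call too (adjusted p = 0.060).

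ALDH16A1 is an unusual member that in mammals lacks the catalytic cysteine of the family. It lies on chromosome 19 (49453225 to 49471050, plus strand) and was read at 527, 608 and 611 normalized counts against 667, 798 and 664. p27-negative replicate 2 was the highest and p27-positive replicate 1 the lowest of the 6. It fell 1.22-fold (-0.28 ± 0.10; limma, adjusted p = 0.018), and the call was lost without p27-positive replicate 1 (-0.21; limma, adjusted p = 0.12) or without p27-negative replicate 2 (-0.20; limma, adjusted p = 0.15). A constant prior in limma lost the call too (adjusted p = 0.087). PIH1D1, which shares 273 bases with ALDH16A1 on the opposite strand, was higher than ALDH16A1, at 1010 ± 44.1 and 1070 ± 73.3 normalized counts.

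**Figure D2:**
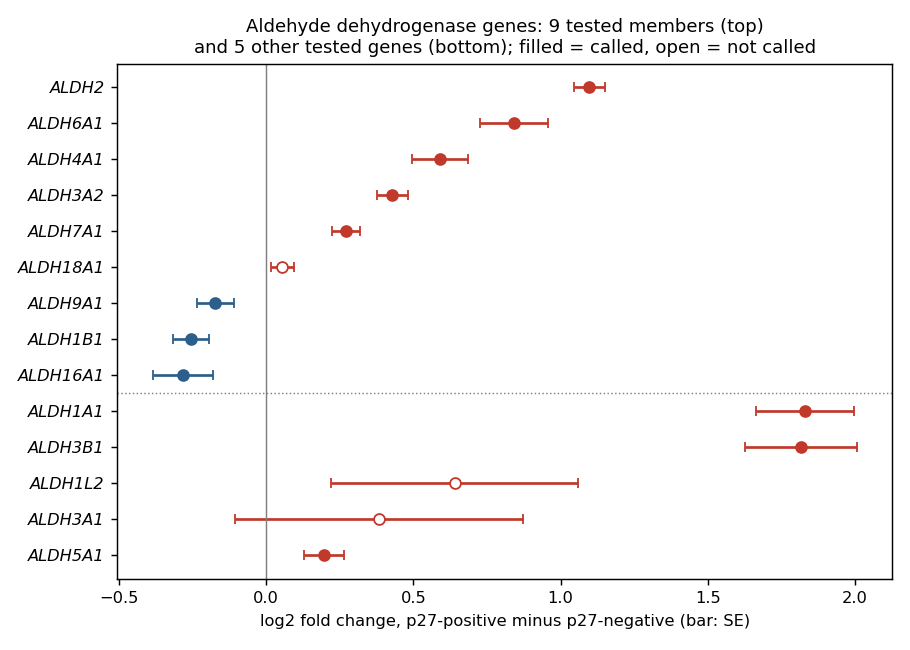
Log2 fold change (x axis, p27-positive minus p27-negative, bars for SE) of the 9 tested members (above the dotted line) and of 5 other tested ALDH genes (below it), with filled points for genes called by limma. ALDH2 (1.10) is the highest and ALDH16A1 (-0.28) the lowest of the members, while ALDH1A1 (1.83) and ALDH3B1 (1.82) lie beyond all of them.

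ALDH1A3, which makes retinoic acid from retinal and is often the main source of ALDH activity in breast cancer cells, was hardly read. The gene (chromosome 15, 100877714 to 100916626, plus strand) had 0, 21 and 4 reads in p27-positive libraries and 2, 1 and 0 in p27-negative libraries. Most of its reads came from p27-positive replicate 2, and the groups overlapped. The ratio of the summed reads after size factors was 7.58, with an exact 95% interval from 2.31 to 39.2 for counting error alone. Over libraries the difference was not shown (exact two-sided permutation test, p = 0.4), nor without the filter by limma (adjusted p = 0.41) or edgeR (adjusted p = 0.22). The antisense gene ALDH1A3-AS1 shares 24284 bases with it on the other strand and had 65 and 25 reads. Reads of the pair cannot be told apart with certainty, since the strand setting of the counting is not given in the sources used here.

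Among the relatives of ALDH1A3 that also make retinoic acid, ALDH1A1 was higher in p27-positive cells. It had 466, 389 and 413 normalized counts in p27-positive libraries, against 132, 114 and 109.6 in p27-negative ones. The lowest p27-positive library stood well above the highest p27-negative one, and the mean rose 3.57-fold (1.83 ± 0.17; limma, adjusted p = 2.4e-12). ALDH1A2 was near the floor in both groups, with 28 and 23 reads in all.

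The other ALDH genes outside the 10 members were mostly low. Of 7 listed, 5 were tested and 3 rose (ALDH1A1, ALDH3B1 and ALDH5A1). ALDH3B1, which oxidises lipid-derived aldehydes at membranes, had 322, 292 and 323 normalized counts against 96.1, 83.5 and 84.5, a rise of 3.55-fold (1.82 ± 0.19; limma, adjusted p = 1.1e-10). ALDH5A1, the succinate semialdehyde dehydrogenase of the GABA pathway, rose 1.15-fold (1667 ± 105 against 1454 ± 47.9; limma, adjusted p = 0.014). That call was lost without p27-positive replicate 2 (adjusted p = 0.11) and without p27-negative replicate 2 (adjusted p = 0.057). A constant prior in limma lost it too (adjusted p = 0.068). ALDH1L2 (0.64 ± 0.42) and ALDH3A1 (0.38 ± 0.49), each with a mean under 50 normalized counts in p27-positive libraries, did not pass. NOPCHAP1, which shares 54414 bases with ALDH1L2 on the opposite strand, was far higher, at 854 ± 87.1 and 695 ± 44.1. ALDH1L1, which oxidises formyltetrahydrofolate, had 16, 1 and 18 reads in p27-positive libraries and 0 in all 3 p27-negative ones. The ratio was 10.6 with the p27-negative group set at a floor of 3 counts over the group. Without that floor the exact 95% lower limit of the ratio, for counting error alone, was 8.18. The exact two-sided permutation test of the libraries gave p = 0.1, the smallest possible. Without the filter ALDH1L1 passed with limma (adjusted p = 0.029) and with edgeR (adjusted p = 0.0056). Every gene listed had at least 10 reads in all, and ALDH1L1 reached that only through the p27-positive libraries. It therefore had to differ, and these tests are no support for a difference. The values of ALDH3B2 and ALDH8A1 are not analysed here.

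The order of members in FPKM, and the FPKM sums and shares below, depend on gene lengths that were not examined. By mean normalized count, ALDH7A1 (4657 and 3860) came next after ALDH18A1 (6479 and 6237) in both groups, which differs from the FPKM order. In FPKM, ALDH18A1 was the highest member in both groups, at 74.2 ± 0.581 in the p27-positive and 65.2 ± 1.32 in the p27-negative group. ALDH9A1 (23.4 ± 0.989) and ALDH1B1 (23.3 ± 1.03) followed in p27-positive cells and their libraries overlapped. In p27-negative cells ALDH1B1 (25.4 ± 0.88) stood just above ALDH9A1 (24.0 ± 0.29) without overlap. ALDH2 came next in p27-positive cells at 18.1 ± 0.314 FPKM, clear of its neighbours. In p27-negative cells it was at 7.74 ± 0.317, below and overlapping with ALDH7A1 at 8.47 ± 0.442. ALDH7A1, ALDH4A1 and ALDH3A2 came next in p27-positive cells, with no overlap between neighbours, at 11.2 ± 0.497, 10.3 ± 0.198 and 8.61 ± 0.307 FPKM.

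In p27-negative cells ALDH4A1 (6.28 ± 0.576), ALDH16A1 (6.08 ± 0.643) and ALDH3A2 (5.84 ± 0.13) overlapped, so their order is not resolved. ALDH6A1 had the lowest mean of the 9 in both groups, at 4.55 ± 0.369 and 2.33 ± 0.352 FPKM. In p27-positive cells its libraries overlapped those of ALDH16A1 (5.46 ± 0.486), so the order of these 2 is not resolved there, and ALDH1A3 stayed at or below 0.164 FPKM in every library. The FPKM of the 10 members summed to 179 ± 1.47 in the p27-positive group and 151 ± 2.76 in the p27-negative group. The share of ALDH2 in that sum was 9.87%, 10.2% and 10.3% in p27-positive libraries and 5.03%, 5.25% and 5.05% in p27-negative libraries. The share of ALDH18A1 was 41.4% ± 0.23 and 43.1% ± 0.84.

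**Figure D3:**
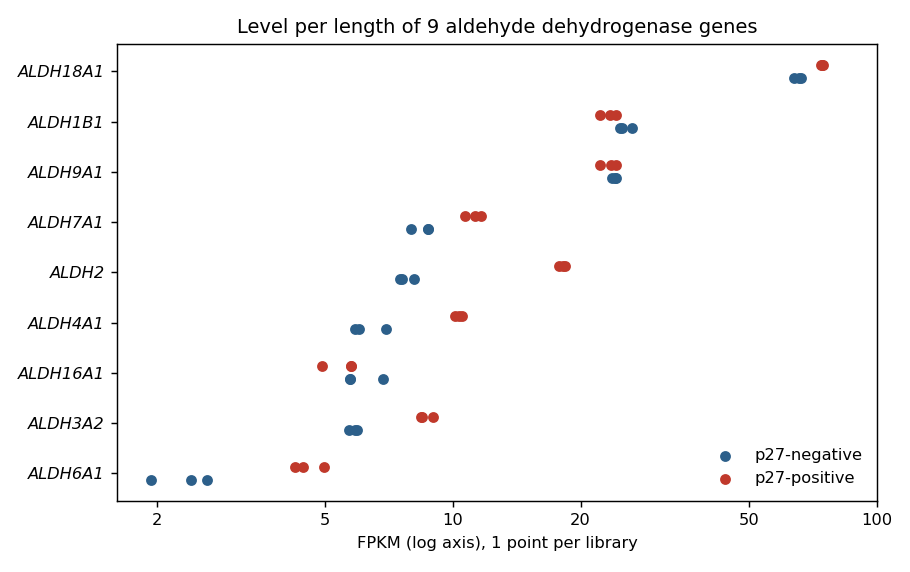
FPKM (x axis, log scale) of 9 members in each library, ordered by their mean in p27-negative cells, with p27-negative libraries in blue and p27-positive libraries in red. ALDH18A1 lies apart at 63.8 to 74.8 FPKM, ALDH2 moves from 7.52 to 8.1 up to 17.8 to 18.4, and ALDH1A3 is left out because it is listed at 0 in 1 library of each group.

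The size of the small changes, and which of them were called, depended on how libraries were scaled, while no tested member changed direction. The median over tested genes moved by 0.13 on the log2 scale when libraries were scaled to their totals and by 0.11 with upper-quartile rescaling, and the share of higher genes among those called went from 48.5% to 63.2% and 61.1% (59.4% in the FPKM table). With quantile normalization the median moved by -0.07 and the share was 49.0%. ALDH2, ALDH6A1, ALDH4A1, ALDH3A2 and ALDH7A1 were called higher under all 5 scalings. ALDH18A1 was called higher under the 4 other scalings, at 0.17 to 0.24. Of the 3 members that fell, all kept a negative sign, but ALDH1B1 passed in addition only with upper-quartile rescaling (-0.14; limma, adjusted p = 0.047) and ALDH16A1 only with quantile normalization (-0.28; limma, adjusted p = 0.025).

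**Figure D4:**
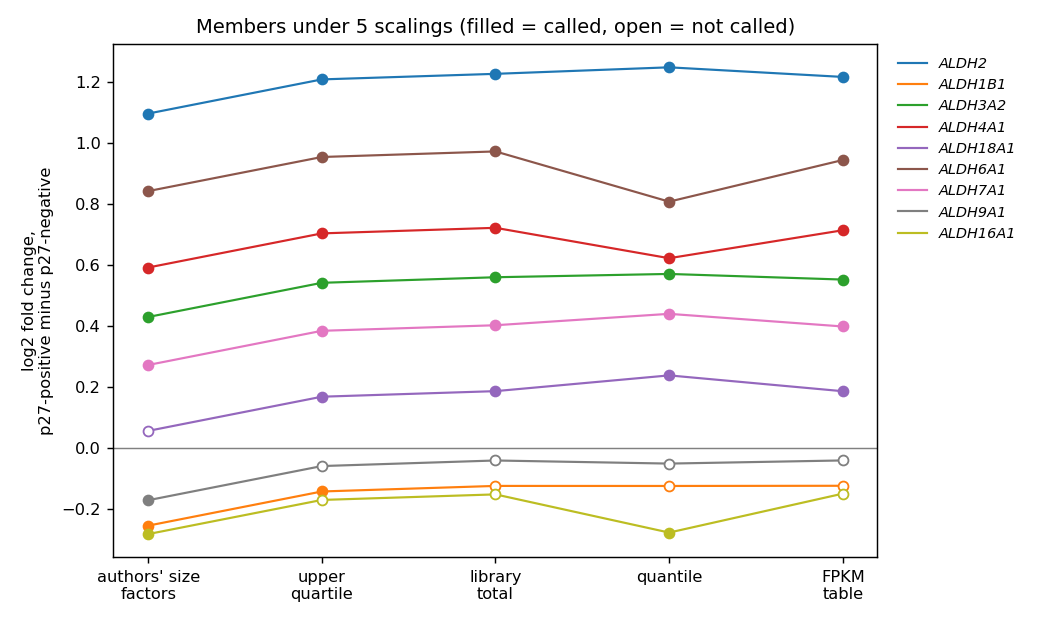
Log2 fold change (y axis) of the 9 tested members with the authors' size factors and under 4 other scalings (x axis), with filled points for members called by limma. The 5 upper lines are filled throughout, ALDH18A1 is open with the authors' size factors alone, and the 3 lower lines stay below 0 but are mostly open under the other scalings.

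The promoters of 8 of the 10 members were matched by symbol in RefSeq sequences of build GRCh38.p14, from 250 bases before to 50 bases after a start site. They are shown for the member with the largest rise among those matched (ALDH6A1), for ALDH4A1 as another that rose, for ALDH1B1 as one that fell and for ALDH1A3 as the one hardly read. The RefSeq start lay 0 to 169 bases inside the gene of the deposited tables, except in ALDH1A3, where it lay 2117 bases inside. Capitals mark the CCAAT box (CCAAT), the GC box (GGGCGG), the E-box (CACGTG) and the TATA box (TATAAA), searched on both strands, with overlapping matches counted. Positions are chr14:74084404-74084703 on the minus strand for ALDH6A1, chr1:18902506-18902805 on the minus strand for ALDH4A1, chr9:38392452-38392751 on the plus strand for ALDH1B1 and chr15:100879581-100879880 on the plus strand for ALDH1A3.
ALDH6A1: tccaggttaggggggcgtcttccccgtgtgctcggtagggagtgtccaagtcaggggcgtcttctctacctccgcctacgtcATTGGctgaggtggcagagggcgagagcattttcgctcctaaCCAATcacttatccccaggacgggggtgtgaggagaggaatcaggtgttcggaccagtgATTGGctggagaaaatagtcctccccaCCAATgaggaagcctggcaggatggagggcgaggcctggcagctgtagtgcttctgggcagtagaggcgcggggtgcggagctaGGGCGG
ALDH4A1: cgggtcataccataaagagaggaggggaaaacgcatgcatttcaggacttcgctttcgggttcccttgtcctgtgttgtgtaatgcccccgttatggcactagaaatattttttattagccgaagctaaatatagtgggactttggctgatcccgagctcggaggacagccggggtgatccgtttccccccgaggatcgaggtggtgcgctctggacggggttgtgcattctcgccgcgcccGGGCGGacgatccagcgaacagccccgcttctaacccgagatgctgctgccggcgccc
ALDH1B1: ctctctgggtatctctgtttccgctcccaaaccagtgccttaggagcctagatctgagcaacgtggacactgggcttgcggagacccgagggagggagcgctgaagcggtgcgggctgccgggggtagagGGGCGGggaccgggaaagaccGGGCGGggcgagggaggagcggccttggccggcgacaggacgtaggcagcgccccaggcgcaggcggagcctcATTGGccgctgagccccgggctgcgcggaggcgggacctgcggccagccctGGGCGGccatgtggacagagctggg
ALDH1A3: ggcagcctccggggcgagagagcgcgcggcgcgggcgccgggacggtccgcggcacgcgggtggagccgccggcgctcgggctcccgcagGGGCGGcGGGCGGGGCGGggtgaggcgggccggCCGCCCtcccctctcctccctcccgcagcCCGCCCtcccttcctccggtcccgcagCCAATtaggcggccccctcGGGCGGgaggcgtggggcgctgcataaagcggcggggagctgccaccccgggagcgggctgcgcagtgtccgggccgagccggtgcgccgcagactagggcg

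The ALDH6A1 promoter held 4 CCAAT boxes, a count that 0.991% of the 35116 promoters in the RefSeq set reached, and 34.6% held at least 1. Among the 8 matched members, 4 held a CCAAT box (ALDH1A3, ALDH1B1, ALDH6A1 and ALDH7A1), while ALDH3A2 and ALDH4A1, which rose, ALDH9A1, which fell, and ALDH18A1 did not. The ALDH1A3 promoter was the richest in GC boxes, with 6 matches of which some overlap, reached by 2.86% of promoters. GC boxes were in 6 of the 8 members and in 45.0% of all promoters. ALDH3A2 and ALDH18A1 had none in this window. ALDH18A1 alone held an E-box (7.26% of promoters), and the TATA box letters, in 11.5% of promoters, were found in none of the 8 windows. These matches describe letters in a window and were not tied to the levels by any test.

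The genes around the ALDH steps were counted from lists of related pathways, each read against the 25.5% higher and 27.1% lower of all genes. Scaled to library totals, 5343 of all 15950 tested genes were higher and 3114 lower, against 4067 and 4318 with the authors' size factors. List counts under that scaling are to be read against this shift of all genes. In branched-chain amino acid breakdown, the path that holds ALDH6A1, 10 of 23 tested genes rose and 4 fell, with a median log2 fold change of 0.16. PPM1K, the phosphatase that switches on the branched-chain ketoacid dehydrogenase, rose 2.38-fold (454 ± 32.8 against 191 ± 16.5). IVD, the isovaleryl-CoA dehydrogenase of leucine breakdown (0.63 ± 0.05), and DBT, a core subunit of the ketoacid dehydrogenase (0.57 ± 0.08), also rose. BCAT1, the cytosolic transaminase that starts the path, fell (-0.22 ± 0.03). Scaled to library totals, 17 rose and 1 fell.

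In lysine breakdown, the path that holds ALDH7A1, the genes went the other way from ALDH7A1. Of 6 tested genes 5 fell, with a median of -0.34. DHTKD1, a subunit of the ketoadipate dehydrogenase, was at 1282 ± 17.2 against 2034 ± 48.1 (-0.67 ± 0.06; limma, adjusted p = 1.1e-11). DLST (-0.33 ± 0.05), the succinyltransferase shared with the citric acid cycle, GCDH (-0.34 ± 0.10), the glutaryl-CoA dehydrogenase, AASS (-0.24 ± 0.07), which starts the path, and AADAT (-0.37 ± 0.14) fell, while HYKK (0.49 ± 0.29) did not pass. The count is small and scale-bound, since 4 fell with quantile normalization, 3 with upper-quartile rescaling and 2 when scaled to library totals. Without p27-positive replicate 3 it was 3.

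In proline and glutamate metabolism 5 of 12 tested genes rose and 3 fell (median -0.02). GLUL, glutamine synthetase, rose (0.35 ± 0.03), as did at low level PRODH, the first step of proline breakdown ahead of ALDH4A1 (59.3 ± 2.69 against 29.7 ± 4.99; 0.99 ± 0.39; limma, adjusted p = 0.030). PYCR1, the reductase that completes proline synthesis after ALDH18A1, rose by 0.14 ± 0.05, and GLS2 rose at low level (1.82 ± 0.52). GOT2 (-0.52 ± 0.04), the mitochondrial aspartate transaminase, GLUD1 (-0.40 ± 0.04), glutamate dehydrogenase, and OAT (-0.13 ± 0.05), ornithine aminotransferase, fell. Scaled to library totals, 5 rose, 2 fell and the median was 0.11.

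Genes of the retinoic acid pathway, which surrounds ALDH1A1 and ALDH1A3, went both ways, with 5 of 16 tested higher and 3 lower (median 0.11). RETSAT, retinol saturase, rose 2.50-fold (1.32 ± 0.08). RDH11, a retinal reductase, rose 1.94-fold (0.96 ± 0.07). DHRS3, which turns retinal back to retinol, is among the 5, at 65.4 ± 27.05 normalized counts against 2.52 ± 3.63. It reached the level for testing only through the p27-positive libraries where it is high, so it had to differ and its call is no support for a change of the list. STRA6, a retinol uptake receptor gene, rose by 0.67 ± 0.23. FABP5, which carries fatty acids and retinoic acid, fell 2.05-fold (-1.03 ± 0.08), and RARA, a retinoic acid receptor gene (-0.43 ± 0.15), and RDH13 (-0.37 ± 0.13) fell. CYP26A1, the retinoic acid-clearing enzyme gene that retinoic acid induces, was at 18.8 ± 7.5 against 28.8 ± 6.85 and did not pass (limma, adjusted p = 0.33). Scaled to library totals, 8 rose and 1 fell.

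Enzymes that form or clear aldehydes by other routes also moved. In amine oxidation and carnitine synthesis 4 of 7 tested genes rose (median 0.96). SAT1, which acetylates spermidine and spermine ahead of their oxidation, rose 4.99-fold (2732 ± 124 against 547 ± 45.7), and MAOA, the mitochondrial monoamine oxidase that gives aldehydes from amines, 2.39-fold (1.26 ± 0.11). SMOX, spermine oxidase (0.60 ± 0.10), and SLC22A5, the carnitine importer (0.65 ± 0.08), rose as well, and 5 of the 7 rose when scaled to library totals. In the list of other enzymes of aldehyde and alcohol conversion 2 of 9 rose and 5 fell (median -0.19). GSTA4, the glutathione transferase for 4-hydroxynonenal, rose 2.52-fold (1.33 ± 0.10), and AKR1A1, an aldehyde reductase, 1.71-fold (0.77 ± 0.05). ADH5 (-0.30 ± 0.05) and ESD (-0.45 ± 0.06), which together clear formaldehyde through glutathione, fell, as did AKR1B1, aldose reductase (-0.24 ± 0.05), CBR3 (-1.06 ± 0.44) and CBR4 (-0.19 ± 0.08). Scaled to library totals, 3 rose and 2 fell.

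Of 9 tested genes of fatty aldehyde and sphingosine phosphate steps, which feed ALDH3A2, 3 rose and 3 fell (median 0.10). SGPL1, the lyase that releases a fatty aldehyde from sphingosine 1-phosphate, rose by 0.32 ± 0.06, SPHK2, a sphingosine kinase, by 0.52 ± 0.11 and PHYH, the first enzyme of phytanic acid breakdown, by 0.56 ± 0.18. AGPS, an enzyme of ether lipid synthesis (-0.46 ± 0.06), SPHK1 (-0.31 ± 0.12) and HACL1 (-0.21 ± 0.09) fell. Scaled to library totals, 4 rose and 1 fell, and without p27-negative replicate 1 the calls went from 6 to 3 with the authors' size factors.

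Other breast stem-like cell markers, the set in which ALDH activity is usually placed, were higher for 5 of 9 tested genes and lower for 2 (median 1.34). Of 15 markers chosen 11 were listed, while PROM1, SOX2, NANOG and THY1 are not analysed here. SOX9 and KLF4 were near the floor and did not reach the level for testing. CD44, the hyaluronan receptor, rose 2.60-fold (6655 ± 38.2 against 2560.2 ± 85.7), ITGA6, the integrin alpha 6 gene, 2.60-fold (1.38 ± 0.04) and LGR5, a Wnt pathway receptor, 4.05-fold (2342 ± 164 against 578 ± 96.5). CD24, whose low level together with high CD44 is the classical breast stem-like profile, rose too (1.83 ± 0.21), as did POU5F1 (1.34 ± 0.29). BMI1, a Polycomb gene of self-renewal, fell (-0.53 ± 0.09), and EPCAM fell by 0.30 on the log2 scale. ABCG2 (-0.15 ± 0.43) and PROCR (0.04 ± 0.08) did not pass. Scaled to library totals, 5 rose and 1 fell.

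**Figure D5:**
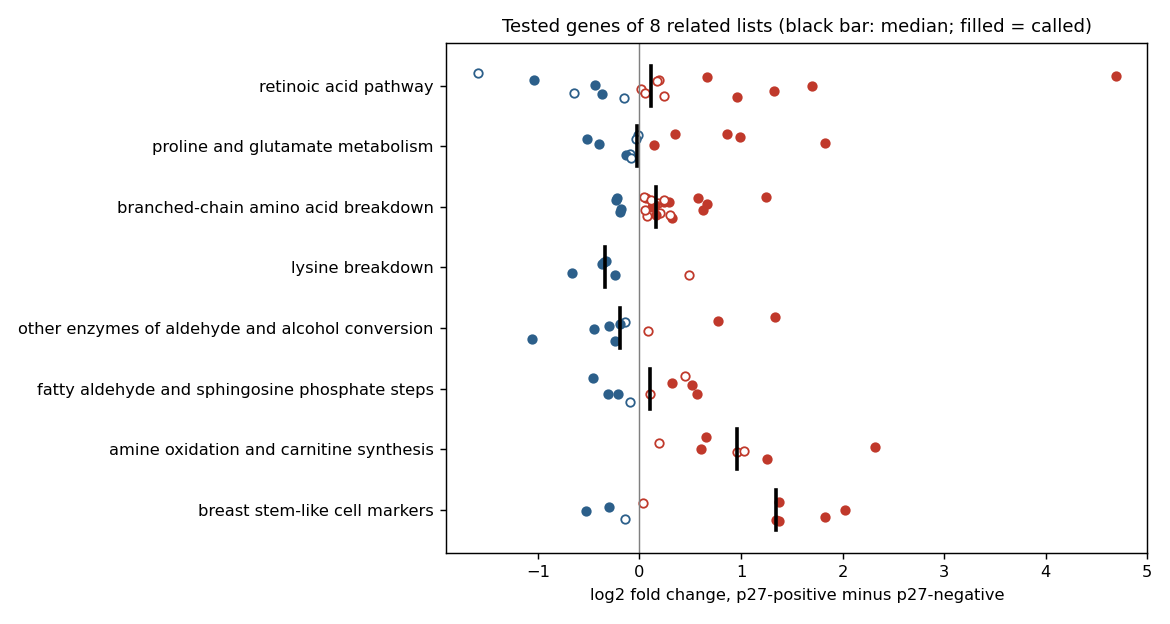
Log2 fold change (x axis, p27-positive minus p27-negative) of the tested genes of 8 lists, with 1 point per gene, filled where limma called it and the list's median as a black bar. Medians run from -0.34 in lysine breakdown to 1.34 in breast stem-like cell markers, and the single point at 4.69 is DHRS3, tested only because of its level in p27-positive libraries.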

How the data were processed

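A stranded poly(A) kit was used, per the labels' protocols, and STAR, featureCounts, DESeq2 and hg38 are named in the submitters' processing notes. No tool version was given in the sources used here, nor the annotation or the strand setting. In one table the signal is a normalized count, which the authors obtained by dividing reads by a size factor for each library, per the file headers. The other table holds FPKM from the authors, as its file header says. All normalized counts (100%, tolerance 1e-06) were multiples of the value of 1 read, so reads could be recovered.

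limma 3.58.1 (R 4.3.3) tested log2(normalized count + 1), two-sided, with a prior that follows the mean level and with group alone in the model. It called 8385 genes. edgeR 4.0.16 and DESeq2 1.42.0 on recovered reads were alternatives and called 8290 and 8174. The others were pseudocounts of 0.5 and 5, a filter at 50 or none, 3 further scalings, log2(FPKM + 0.1) for a mean FPKM from 0.5, limma with a constant prior, a block for the replicate number, and each library left out.

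The members, the lists and the gene pairs of the ratios were chosen with earlier results of these data known. The rule for names took all members, other listed ALDH genes and up to 4 genes per list by smallest p. It also took members of counts of 5 or fewer, genes overlapping a member, and CDKN1B, CDKN1A and MKI67. Named after their values were seen were KRT7, KRT8, KRT18, KRT19, CDH1, VIM, ZEB1, FN1, CDH2, VWF, CDH5, PECAM1, CYP26A1, SOX9, KLF4 and NOPCHAP1. Exact intervals (95%) cover counting error only. Some genes that the rule for names takes are not reported here.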

Additional observations from a re-analysis of the deposited data

How the results depend on the processing

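ALDH2, ALDH3A2, ALDH4A1, ALDH6A1 and ALDH7A1 were called higher under all 18 alternatives, and no member changed sign. The number of members called lower (3) was 1 with quantile normalization, 1 with upper-quartile rescaling, 1 without the trended prior, and 0 with scaling to the library total and in the FPKM table (1 at an unadjusted p under 0.05 by limma in each), while edgeR and DESeq2 on recovered reads called 3. Calls in lysine breakdown (5) were 3 with upper-quartile rescaling and without the trended prior, and 2 with scaling to the library total and in the FPKM table. Calls in proline and glutamate metabolism (8) were 5 in the FPKM table and without the trended prior, and those in branched-chain amino acid breakdown (14) were 6 without the trended prior. ALDH3A1, not called, was at -0.042 with quantile normalization. Leaving out 1 library gave 7510 to 8074 called genes, 7 to 8 called members, 3 to 5 calls in lysine breakdown (3 without p27-positive replicate 3) and 3 to 5 in the fatty aldehyde list (3 without p27-negative replicate 1, against 6).

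With the replicate number as a block 8395 genes and 8 members were called. Same-numbered libraries did not deviate together (correlations of 0.00898, -0.000512 and 0.0106). Such correlations cannot show whether same-numbered libraries came from a shared culture, and the labels do not say that the numbers pair the samples. Depth limits ALDH1A3, ALDH1A2 and ALDH1L1, with 28, 51 and 35 reads in all. The causes of these dependences were not tested.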
